A study of Homo sapiens with 12 samples.

Results

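The lysine deacetylase family was followed through 10 genes in RKO cells, a human colorectal carcinoma cell line: the histone deacetylases HDAC1, HDAC2, HDAC3, HDAC4, HDAC5, HDAC6, HDAC7 and HDAC9, and the sirtuins SIRT1 and SIRT2. A probe set, the group of short probes that reads 1 transcript region on the array, was counted for a gene only where the platform annotation named that gene alone. The 10 genes had 12 such probe sets of the 22215 tested, which named 11963 genes in all. HDAC6 had 3 and the others 1 each, and HDAC6 is described by its brightest one, the other 2 being given beside it.

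Each group held 3 Affymetrix U133A 2.0 arrays of total RNA. Control cells were untreated according to the record, whereas the study's methods gave them the solvent DMSO at no more than 1%. TQ cells received thymoquinone, a quinone from black cumin seed, at 20 µM. 5-FU cells received 5-fluorouracil, which blocks thymidylate synthesis and is built into RNA and DNA, at 10 µg/mL (76.8 µM). TQ+5-FU cells (labelled MIX) received both doses at the same time, and all groups were read after 24 h. All 4 groups were of this 1 cell line, and the labels did not say whether the arrays came from separate cultures. The study's methods speak of independent biological replicates in general but not of the arrays, so the p-values measure the spread between arrays, which may be technical. The arrays read whole cultures, in which fewer cells of a type and less RNA per cell cannot be told apart.

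Histone deacetylases remove acetyl groups from lysines of histones and other proteins, which in general closes chromatin and lowers transcription. Class I enzymes (HDAC1, HDAC2, HDAC3) are nuclear and act inside corepressor complexes such as NuRD, SIN3, CoREST and NCoR/SMRT. Class IIa enzymes (HDAC4, HDAC5, HDAC7, HDAC9) have little catalytic activity of their own, bind MEF2 transcription factors and leave the nucleus when kinases phosphorylate them, whereas the class IIb enzyme HDAC6 deacetylates tubulin in the cytoplasm. Sirtuins use NAD as a cosubstrate. SIRT1 deacetylates p53 and histones, and SIRT2 is mainly a cytoplasmic tubulin deacetylase. Class I enzymes are raised in many colorectal tumours, and inhibitors of the family arrest colorectal cancer cells in culture.

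Signals are log2 values normalised by the authors, and a difference of 1 is a 2-fold change. A pair of arrays stood apart from their own replicates over all probe sets, 5-FU replicate 3 (mean Pearson r with its group 0.911, against 0.952 and 0.957 for the other 5-FU arrays) and, less far, TQ+5-FU replicate 2 (0.978, against 0.984 and 0.990 for the other TQ+5-FU arrays). The 10 other arrays spanned 0.952 to 0.998, so 0.978 was low only for its group. The poly-A spike-in controls averaged 9.47 in 5-FU replicate 3 and 8.95 in TQ+5-FU replicate 2, against 8.22 to 8.97 in the other 10 arrays. Their median log2 signals were 6.33 and 6.43, against 6.50 to 6.55. The 3' minus 5' signal of GAPDH was 0.063 and 0.131, against 0.046 to 0.089, and that of ACTB 0.557 and 0.886, against 0.573 to 0.957. The mean signal of 7 leukocyte markers was 5.26 and 4.90 in these 2 arrays against 4.48 to 4.73 in the others, that of 7 fibroblast markers 5.72 and 5.41 against 5.00 to 5.26, and that of 4 endothelial markers 4.83 and 4.52 against 4.05 to 4.37. Mean control signals of these markers ran from 2.88 (LYZ) to 6.15 (CD3E) for leukocytes, with PTPRC at 3.96, from 2.42 (LUM) to 8.23 (COL1A1) for fibroblasts, with PDGFRB at 5.97 and THY1 at 5.77, and from 3.34 (KDR) to 5.00 (VWF) for endothelium. EPCAM (9.04) and KRT18 (12.09) were bright in control cells, whereas CDH1 (3.72), KRT19 (3.60), KRT20 (3.03) and VIL1 (3.65) were dim, so the epithelial label rested on part of its markers. The 12 epithelial and colorectal markers averaged 6.58 and 6.38 in the displaced arrays against 5.91 to 6.12 in the others. The part of these values in the results was not tested, and results are given with all 12 arrays and, for the genes named, also without these 2 arrays. The 2 arrays were picked by their distance from their replicates in these same data. Leaving them out therefore lowers the estimated spread, and 2 arrays remain in each of the 5-FU and TQ+5-FU groups. Adjusted p-values of that fit can thus be too low, and its rises and falls are given beside the 12-array results only as a comparison.

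The displaced arrays split the family in the same way. This was not particular to the family, as their deviations from the group means were correlated over all probe sets (Pearson r 0.88). HDAC1, HDAC2, HDAC9 and SIRT1 were lower in both displaced arrays than in the other 2 arrays of the same group, whereas HDAC3, HDAC4, HDAC5, HDAC6, HDAC7 and SIRT2 were higher in both. In 5-FU replicate 3, HDAC9 was lower by a log2 difference of -3.05, HDAC2 by -1.96, SIRT1 by -1.96 and HDAC1 by -1.39. These 4 genes lay more than 1 log2 unit from their replicates, as did 24% of all probe sets, and SIRT2 was higher by 0.87. In TQ+5-FU replicate 2, HDAC9 lay -1.58 from its replicates and no other member more than 1, compared with 8.15% of all probe sets.

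**Figure D1:**
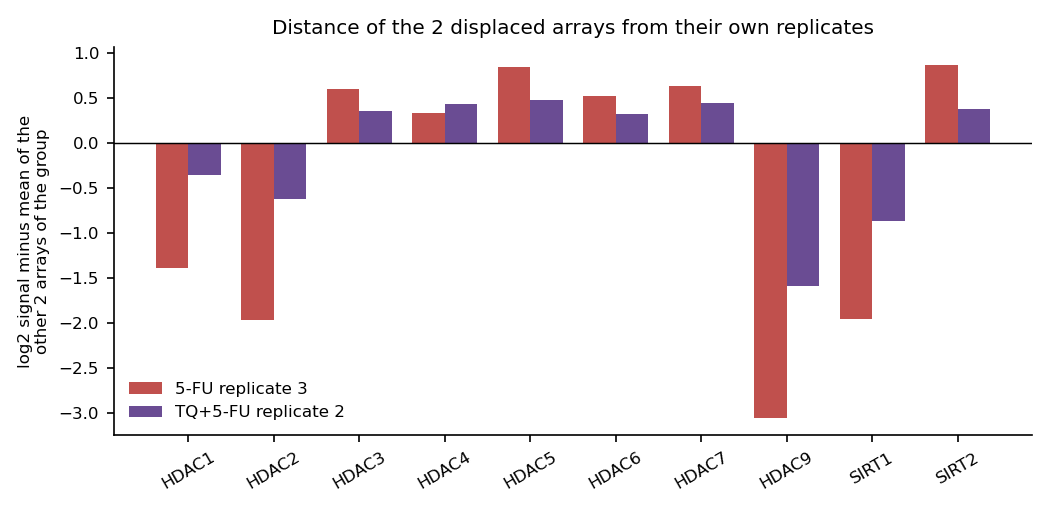
Log2 signal of each deacetylase gene in 5-FU replicate 3 (red) and TQ+5-FU replicate 2 (purple) minus the mean of the other 2 arrays of its group. Both bars point the same way for all 10 genes, and the longest is HDAC9 in 5-FU replicate 3 at -3.05. Over all probe sets the deviations of the 2 arrays from their group means had a Pearson r of 0.88.

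Promoters are shown for the 3 genes that the comparisons turn on: HDAC4 and SIRT2, which differed among the 4 groups, and HDAC9, which had the widest spread within a group. RefSeq sequence of build GRCh38.p14 was matched for 9 of the 10 genes (not HDAC5), from 250 bases before to 50 bases after a start. Capitals mark motif matches. The HDAC4 window, on the minus strand at chr2:239274732-239275031, held 3 CpG dinucleotides, a GC content of 54.3% and 1 match to the p53 half-site, a match that 6.63% of 35116 promoters held. The HDAC9 window, on the plus strand at chr7:18495499-18495798, held 5 CpG, a GC content of 47.3%, 2 CCAAT boxes and 1 AP-1 site. The SIRT2 window, on the minus strand at chr19:38899569-38899868, held 23 CpG, a GC content of 58.7% and 1 CCAAT box.
HDAC4: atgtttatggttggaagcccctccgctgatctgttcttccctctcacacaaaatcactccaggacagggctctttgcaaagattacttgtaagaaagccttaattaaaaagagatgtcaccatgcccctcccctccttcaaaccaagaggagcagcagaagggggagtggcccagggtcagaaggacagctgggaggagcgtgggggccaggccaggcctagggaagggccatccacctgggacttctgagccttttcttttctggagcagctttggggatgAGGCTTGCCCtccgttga
HDAC9: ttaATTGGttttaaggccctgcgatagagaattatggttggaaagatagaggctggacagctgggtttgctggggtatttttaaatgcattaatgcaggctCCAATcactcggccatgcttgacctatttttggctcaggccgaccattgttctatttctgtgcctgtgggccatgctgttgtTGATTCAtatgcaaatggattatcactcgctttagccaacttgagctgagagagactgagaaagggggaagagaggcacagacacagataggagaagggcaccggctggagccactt
SIRT2: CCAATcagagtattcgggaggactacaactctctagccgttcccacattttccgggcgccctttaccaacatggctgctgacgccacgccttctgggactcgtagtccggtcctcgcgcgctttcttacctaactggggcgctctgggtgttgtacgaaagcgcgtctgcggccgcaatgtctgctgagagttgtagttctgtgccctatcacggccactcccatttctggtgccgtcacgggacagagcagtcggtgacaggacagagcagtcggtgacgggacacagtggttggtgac

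The HDAC4 and HDAC9 starts lay inside the annotated spans of those genes (chr2:239048168-239401649 and chr7:18086825-19002416). Those of HDAC6 and HDAC7 also lay inside their gene spans. The 6 windows not printed were richer, with 24 to 39 CpG and a GC content of 64% to 74.7%, against a median of 58.7% over all promoters. Motifs were sought on both strands by their letters. The CCAAT box (CCAAT) was in 34.6% of all promoters, the AP-1 site (TGANTCA) in 7.71%, the GC box (GGGCGG) in 45%, the TATA box (TATAAA) in 11.5% and the E-box (CACGTG) in 7.26%, and the MEF2 site in 2.99%. GC boxes were in the windows of HDAC1, HDAC3, HDAC6 and SIRT1, SIRT1 alone of the 9 had the E-box, with 2 matches, and none of the 9 had a TATA box or a MEF2 site. The HDAC2 window also held 1 p53 half-site match, and only those of HDAC2 and HDAC4 had any.

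HDAC4 was lower than in control in both groups that received 5-FU. Its only probe set (204225_at) was dim, with a 12-array mean of 6.05 that was above 44.7% of all probe sets. The leukocyte marker CD3E stood at 45.8% and the fibroblast marker PDGFRB at 44.6%. The HDAC4 signal was 6.53, 6.35 and 6.76 in the control arrays. It was 5.55, 5.70 and 5.96 with 5-FU, 5.57, 6.08 and 5.71 with TQ+5-FU, and 6.08, 6.17 and 6.19 with TQ. Every treated array was below every control array, and every 5-FU array was below every TQ array, whereas the TQ+5-FU arrays overlapped both of those groups. HDAC4 fell with 5-FU by 0.81 on the log2 scale (SE 0.16, adjusted p = 0.015, limma over all probe sets) and with TQ+5-FU by 0.76 (SE 0.16, adjusted p = 0.039). With TQ the difference was -0.40 (SE 0.16, adjusted p = 0.45). In order of group means, control (6.55 ± 0.21, SD, n = 3) stood above TQ (6.15 ± 0.06), TQ+5-FU (5.79 ± 0.26) and 5-FU (5.74 ± 0.21). In the fit without the 2 displaced arrays HDAC4 fell under all 3 treatments: under 5-FU it fell by 0.92 (adjusted p = 0.00021), under TQ+5-FU by 0.91 (adjusted p = 0.00049) and under TQ by 0.40 (adjusted p = 0.015). The 5-FU call was lost without control replicate 1 (-0.82, adjusted p = 0.064) or control replicate 3 (-0.70, adjusted p = 0.074). The TQ+5-FU call was lost without any 1 of 9 arrays (each control array, each TQ array, 5-FU replicate 2, and TQ+5-FU replicates 1 and 3), with differences of -0.65 to -0.86 and adjusted p of 0.06 to 0.17. Both calls were also lost after centring each array on its median (adjusted p = 0.062 for 5-FU and 0.12 for TQ+5-FU) and in fits of only the groups compared (0.13 and 0.066), and the TQ+5-FU call also with the trended robust prior (0.062).

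SIRT2 rose with 5-FU given alone. Its signal (220605_s_at) was 8.38, 8.43 and 8.50 in control and 9.11, 9.08 and 9.97 with 5-FU. It was 8.40, 8.11 and 8.20 with TQ and 8.47, 8.90 and 8.57 with TQ+5-FU. The 3 5-FU arrays were above all 9 others, whereas TQ and TQ+5-FU arrays each overlapped the control arrays. The rise with 5-FU was 0.96 (SE 0.22, adjusted p = 0.028), and 5-FU exceeded TQ by 1.15 (SE 0.22, adjusted p = 0.011). TQ+5-FU differed from control by 0.21 (SE 0.22, adjusted p = 1) and from 5-FU by -0.74 (SE 0.22, unadjusted p = 0.0071, adjusted p = 0.22). Leaving out the displaced arrays, SIRT2 rose with 5-FU by 0.67 (adjusted p = 0.00048) and was lower with TQ+5-FU than with 5-FU by -0.58 (SE 0.11, adjusted p = 0.011), while TQ+5-FU against control was 0.09 (95% interval -0.12 to 0.30). The order of means was 5-FU (9.39 ± 0.50), TQ+5-FU (8.65 ± 0.22), control (8.43 ± 0.06) and TQ (8.23 ± 0.15), and each neighbouring pair from TQ+5-FU down overlapped. The 5-FU call was lost without each control array in turn (0.93, 0.95 and 0.99, adjusted p = 0.11, 0.10 and 0.084) or without TQ replicate 3 (0.96, adjusted p = 0.051). It was also lost after median centring (adjusted p = 0.056) and in a fit of only the groups compared (0.21). The methods' procedure, a test among the 4 groups followed by Tukey's test, did not pass it either (adjusted p = 0.063). The call of 5-FU against TQ was lost without TQ replicate 2 (1.09, adjusted p = 0.054) or TQ replicate 3 (1.14, adjusted p = 0.052). It was also lost in a fit of only these groups (adjusted p = 0.12) and under the methods' procedure (0.063). Both SIRT2 comparisons gave 0.063 although their differences were not equal. That value therefore cannot be the Tukey p of both pairs, and no failure of Tukey's test alone was read from it.

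**Figure D2:**
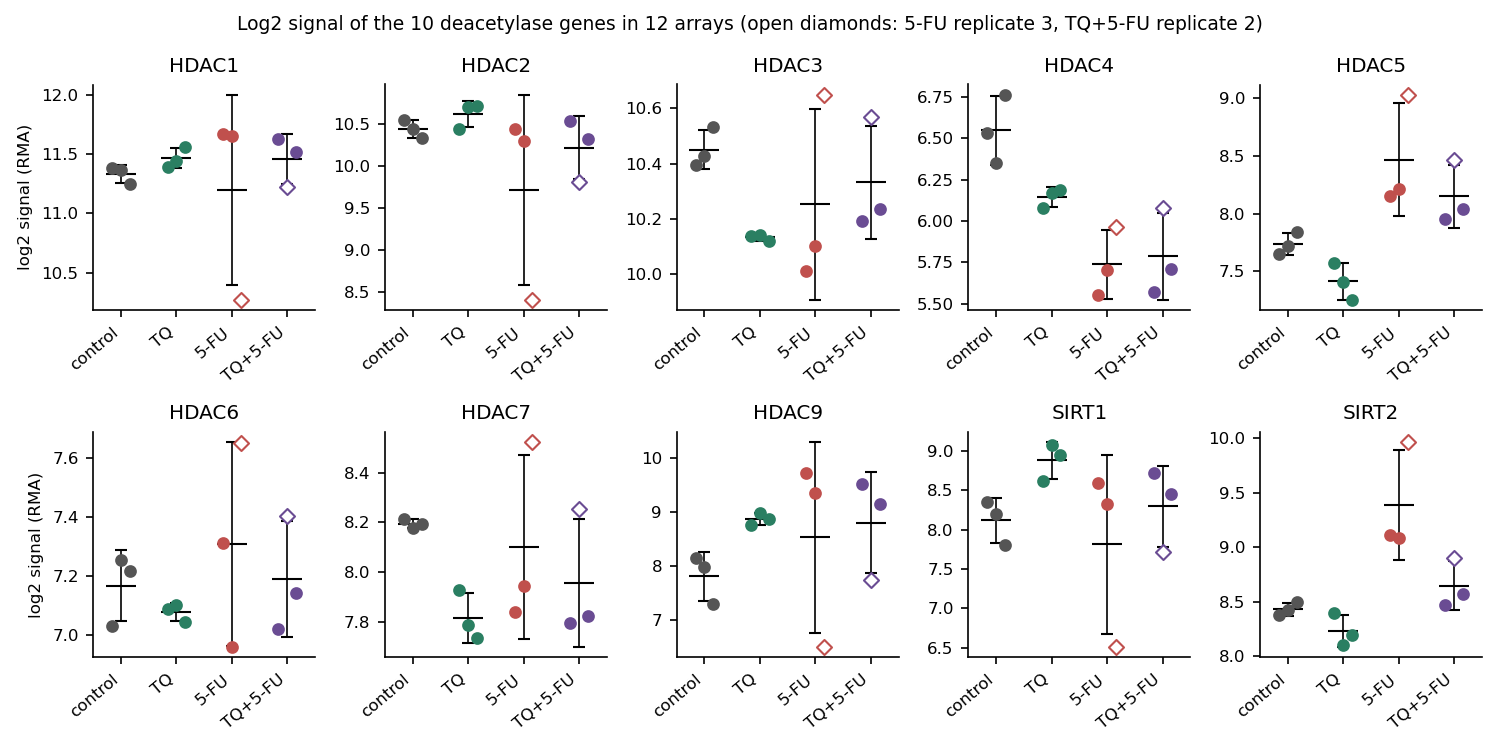
Log2 signal (RMA, vertical axis, own scale per panel) of the 10 deacetylase genes in the 3 arrays of each group, with bars for the mean and SD (n = 3). Open diamonds mark 5-FU replicate 3 and TQ+5-FU replicate 2, at 6.50 and 7.75 for HDAC9 against 9.15 to 9.74 in the other arrays of these groups. HDAC4 is lower in all 9 treated arrays than in the 3 controls, and SIRT2 is highest in the 3 5-FU arrays.

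Among the 10 genes, 2 passed with 5-FU against control (HDAC4 lower, SIRT2 higher), beside 6.68% of all probe sets. With TQ+5-FU 1 passed (HDAC4), beside 2.58% of all probe sets. With TQ 0 passed by limma, beside 0.252% of all probe sets, and 1 (HDAC4) had an unadjusted p under 0.05. These shares are small counts of a small family and nothing was read from them about the family as a whole. The median difference from control over the 10 genes was -0.14 with TQ (all probe sets -0.09), -0.11 with 5-FU (all probe sets 0.07) and 0.07 with TQ+5-FU (all probe sets -0.0031). In the moderated F test among the 4 groups, 2 genes passed (HDAC4 and SIRT2, adjusted p = 0.032 for each), beside 7.54% of all probe sets, and HDAC5 had an adjusted p of 0.055. That test passed for 8 genes without the displaced arrays (all but HDAC2 and HDAC6), beside 42.0% of all probe sets.

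Without the 2 displaced arrays the counts rose to 6 of 10 with TQ, 7 with 5-FU and 3 with TQ+5-FU, and the shares of all probe sets rose to 30.6%, 26.1% and 21.4%. TQ and control had no displaced array, so their signals and difference were the same in both fits and only the estimated spread changed. Arrays of the 2 groups did not overlap for 7 of the 10 genes between TQ and control, for 3 between 5-FU and control and for 2 between TQ+5-FU and control, compared with 44.4%, 24.5% and 24.1% of all probe sets.

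**Figure D3:**
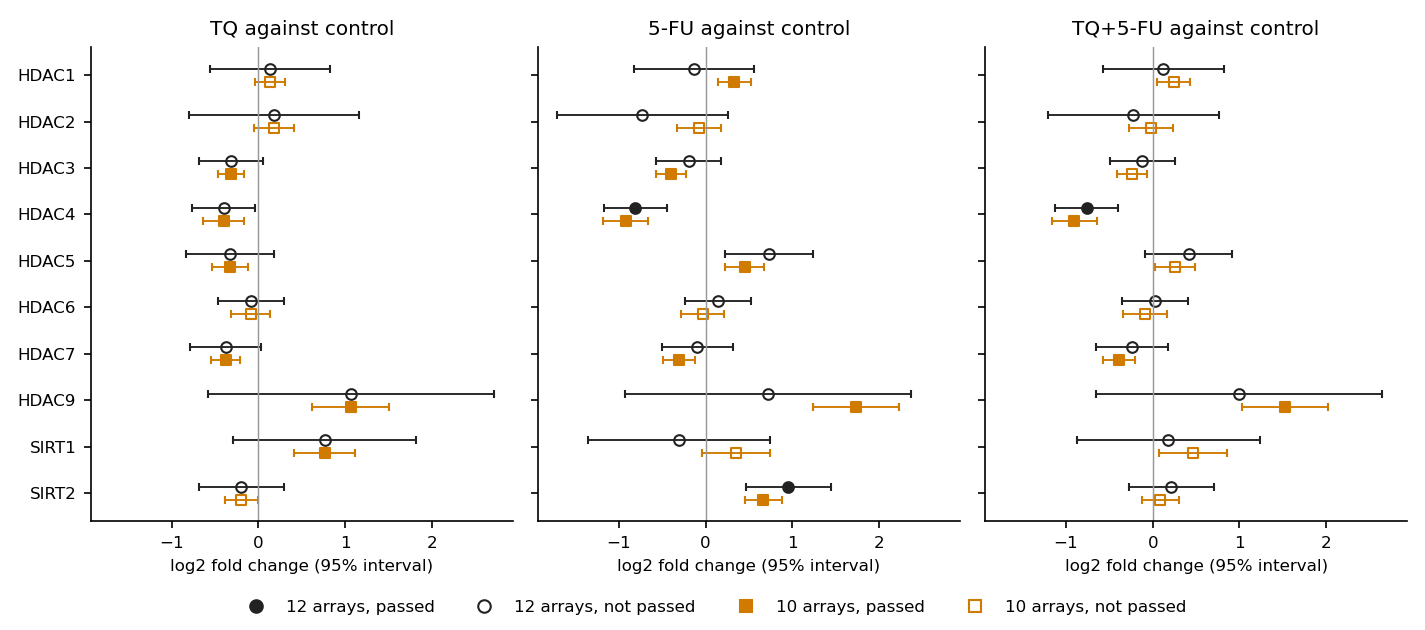
Log2 fold change against control (horizontal axis) with its 95% interval for each deacetylase gene under TQ, 5-FU and TQ+5-FU. Black circles are from all 12 arrays and orange squares from 10 arrays without the 2 displaced ones, filled where the adjusted p was below 0.05. With 12 arrays only HDAC4 (5-FU, TQ+5-FU) and SIRT2 (5-FU) are filled, and the HDAC9 interval under 5-FU narrows from -0.93 to 2.37 to 1.24 to 2.23.

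HDAC9 had the widest difference between the 2 fits. Its signal (205659_at) was 8.15, 7.99 and 7.29 in control and 8.76, 8.99 and 8.88 with TQ. It was 9.74, 9.36 and 6.50 with 5-FU and 9.52, 7.75 and 9.15 with TQ+5-FU. All TQ arrays were above all controls, and the displaced arrays of the 5-FU and TQ+5-FU groups lay below or within the control range while the other 4 arrays of these groups were the highest of the 12. With all arrays no comparison passed, and the differences from control were 1.06 for TQ (SE 0.74, adjusted p = 0.71), 0.72 for 5-FU (SE 0.74, adjusted p = 0.62) and 0.99 for both drugs (SE 0.74, adjusted p = 0.89). Without the displaced arrays HDAC9 rose by 1.06 in TQ cells (SE 0.20, adjusted p = 0.0031), by 1.74 in 5-FU cells (SE 0.22, adjusted p = 0.00023) and by 1.52 in TQ+5-FU cells (SE 0.22, adjusted p = 0.00099). In that fit 5-FU exceeded TQ by 0.67 (adjusted p = 0.044), and TQ+5-FU was -0.21 from 5-FU (95% interval -0.76 to 0.33). The interaction term, the difference between TQ+5-FU and the sum of both single effects, was -1.28 (SE 0.32, adjusted p = 0.032) without the displaced arrays and -0.79 (SE 1.05, adjusted p = 1) with them.

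HDAC5, another class IIa enzyme, differed between TQ and 5-FU cells. Its probe set (202455_at) read 7.65, 7.72 and 7.84 in control, 7.57, 7.41 and 7.25 under TQ, 8.15, 8.22 and 9.03 under 5-FU, and 7.95, 8.46 and 8.03 under TQ+5-FU. The TQ arrays were all below and the 5-FU and TQ+5-FU arrays all above the controls. HDAC5 was higher with 5-FU than with TQ by 1.06 (SE 0.23, adjusted p = 0.018), but 5-FU against control (0.73, adjusted p = 0.097), TQ+5-FU against TQ (0.74, adjusted p = 0.20) and TQ against control (-0.33, adjusted p = 0.71) did not pass. Over the 10 other arrays HDAC5 rose with 5-FU by 0.45 (adjusted p = 0.0082), fell with TQ by 0.33 (adjusted p = 0.022), and was higher than in TQ cells by 0.78 with 5-FU (adjusted p = 0.00031) and by 0.58 with TQ+5-FU (adjusted p = 0.0062). The call of 5-FU against TQ was lost without TQ replicate 2 (1.06, adjusted p = 0.071) or TQ replicate 3 (0.98, adjusted p = 0.085). It was also lost in a fit of only these groups (adjusted p = 0.14). The methods' procedure, a test among the 4 groups followed by Tukey's test, did not pass it either (0.098). Tukey's test alone was not judged by that value.

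HDAC7 (217937_s_at) was tightly grouped in control at 8.21, 8.18 and 8.19. It read 7.93, 7.79 and 7.73 under TQ, 7.84, 7.94 and 8.52 under 5-FU, and 7.79, 8.25 and 7.82 under TQ+5-FU. All 7 undisplaced treated arrays were below the controls and both displaced arrays above them. No comparison passed with 12 arrays (TQ -0.38, adjusted p = 0.57), whereas without the displaced arrays the gene fell in TQ cells by 0.38 (adjusted p = 0.0038), in 5-FU cells by 0.30 (adjusted p = 0.020) and after both drugs by 0.39 (adjusted p = 0.0080).

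The class I enzymes passed in no comparison with 12 arrays. HDAC1 (201209_at) read 11.39, 11.37 and 11.25 in control, 11.39, 11.44 and 11.56 under TQ, 11.67, 11.66 and 10.27 under 5-FU, and 11.63, 11.22 and 11.52 under TQ+5-FU. The groups lay close together apart from 5-FU replicate 3. The 5-FU difference was -0.14 (SE 0.31, adjusted p = 0.82) with all arrays and turned to 0.33 (SE 0.09, adjusted p = 0.016) without the displaced ones. HDAC2 (201833_at), the closest paralogue of HDAC1, read 10.56, 10.44 and 10.34 in control, 10.44, 10.71 and 10.72 under TQ, 10.45, 10.30 and 8.41 under 5-FU, and 10.54, 9.81 and 10.32 under TQ+5-FU. It passed in neither fit: its 5-FU difference was -0.73 (SE 0.44, adjusted p = 0.43) with 12 arrays and -0.07 (95% interval -0.33 to 0.18) with 10. HDAC3 (216326_s_at), the catalytic subunit of NCoR/SMRT, read 10.40, 10.43 and 10.53 in control, 10.14, 10.14 and 10.12 under TQ, 10.01, 10.10 and 10.65 under 5-FU, and 10.19, 10.57 and 10.24 under TQ+5-FU. The TQ arrays were all below the controls by a mean of -0.32 (adjusted p = 0.62 with 12 arrays). Over the 10 other arrays HDAC3 fell by 0.32 with TQ (adjusted p = 0.0065) and by 0.39 with 5-FU (adjusted p = 0.0034), and with TQ+5-FU the difference was -0.24 (adjusted p = 0.054). Its interaction term was then 0.48 (SE 0.11, adjusted p = 0.025), against 0.40 (SE 0.24, adjusted p = 1) with 12 arrays.

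HDAC6 passed in no comparison in either fit. Its brightest probe set (206846_s_at) read 7.03, 7.26 and 7.22 in control, 7.09, 7.10 and 7.05 under TQ, 7.31, 6.96 and 7.65 under 5-FU, and 7.02, 7.41 and 7.14 under TQ+5-FU, and every treated group overlapped the controls. HDAC6 differed from control by -0.09 in TQ cells, 0.14 in 5-FU cells and 0.02 in TQ+5-FU cells (SE 0.17 each, adjusted p = 0.89, 0.67 and 1). The other 2 probe sets, 211722_s_at and 216224_s_at, passed nowhere either: they gave -0.10 and -0.23 under TQ, 0.11 and 0.24 under 5-FU, and 0.07 and -0.08 under both drugs.

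SIRT1 (218878_s_at) passed in no comparison with 12 arrays. It read 8.35, 8.20 and 7.80 in control and 8.62, 9.07 and 8.95 with TQ. It read 8.60, 8.33 and 6.51 with 5-FU and 8.71, 7.72 and 8.46 with TQ+5-FU. The TQ arrays were all above the controls, and the 2 displaced arrays were the lowest of the 12. The TQ difference was 0.76 (SE 0.47, adjusted p = 0.68) with 12 arrays and a rise of 0.76 (SE 0.16, adjusted p = 0.0048) with 10. For 5-FU the sign turned, from -0.31 (adjusted p = 0.73) to 0.35 (adjusted p = 0.19), and it passed in neither. A difference between SIRT1 and SIRT2 in their response was not tested.

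In the comparisons between treatments, 2 members passed between 5-FU and TQ (HDAC5 and SIRT2, both higher with 5-FU), beside 10.2% of all probe sets. With TQ+5-FU against 5-FU 0 passed by limma (0.738% of all probe sets), with TQ+5-FU against TQ 0 (0.968%) and for the interaction 0 (0.126%), and 1, 1 and 0 members had an unadjusted p under 0.05. Without the displaced arrays 4, 1, 2 and 2 passed in the same order, beside 28.6%, 6.13%, 11.7% and 9.89% of all probe sets. Those not yet named were HDAC4, lower with 5-FU than with TQ by -0.52 (adjusted p = 0.0071) and lower with TQ+5-FU than with TQ by -0.50 (adjusted p = 0.020). The comparisons with control share the control arrays, and those with 5-FU share the 5-FU arrays.

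The remaining deacetylases were read for the 6 of 8 genes that had a probe set of their own. SIRT4, a mitochondrial sirtuin, rose with 5-FU by 0.93 (SE 0.14, adjusted p = 0.0026) and with TQ+5-FU by 1.14 (SE 0.14, adjusted p = 0.0019). Its signal (222248_s_at) was 5.10, 5.08 and 5.45 in control, 5.28, 5.46 and 5.20 under TQ, 5.98, 6.23 and 6.22 under 5-FU, and 6.42, 6.40 and 6.22 under TQ+5-FU. The control signals were dim, near the control means of the leukocyte markers ITGAM (5.16) and CD79A (5.39). Neither displaced array stood apart for SIRT4, and the rises without them were 0.90 and 1.11. Its second probe set rose with TQ+5-FU (1.36) and gave 0.67 with 5-FU, which did not pass. SIRT7, a nucleolar sirtuin, gave 0.64 with 5-FU (adjusted p = 0.062) and 0.50 with TQ+5-FU (adjusted p = 0.25). It rose in both without the displaced arrays, by 0.44 and 0.38. HDAC11, SIRT3, SIRT5 and SIRT6 passed in no comparison with control in either fit.

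Among subunits of the complexes that hold class I enzymes, TBL1X, which links NCoR/SMRT to chromatin, fell under all 3 treatments in both fits. It read 9.36, 9.34 and 9.37 in control, 8.46, 8.55 and 8.39 under TQ, 7.60, 7.84 and 7.91 under 5-FU, and 8.16, 8.25 and 8.39 under TQ+5-FU. The groups did not overlap with control, and TBL1X fell by 0.89 in TQ cells (adjusted p = 0.015), by 1.58 in 5-FU cells (adjusted p = 4.2e-05) and by 1.09 in TQ+5-FU cells (adjusted p = 0.00079). With 10 arrays the differences were -0.89, -1.64 and -1.09 (adjusted p = 0.00027, 2.2e-06 and 6.5e-05). Its 4 other probe sets had the same sign, and 1, 4 and 3 of them passed. Of 4 measured NCoR/SMRT genes, CORO2A also passed, rising in 5-FU cells by 0.97 (adjusted p = 0.047; 0.62 and adjusted p = 0.0031 with 10 arrays).

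Of 6 CoREST genes, KDM1A, the histone demethylase of the complex, fell by 0.71 with 5-FU (adjusted p = 0.0017) and by 0.50 with TQ+5-FU (adjusted p = 0.023). Under TQ the difference was -0.37 (adjusted p = 0.18). With 10 arrays KDM1A fell under all 3 treatments, by 0.37, 0.69 and 0.49 for TQ, 5-FU and TQ+5-FU (adjusted p = 0.0053, 0.00020 and 0.0028). The scaffold RCOR1 did not pass with 5-FU or TQ+5-FU (-0.55 and -0.16 with 12 arrays, adjusted p = 0.44 and 1; -0.11 and 0.11 with 10, adjusted p = 0.59 and 0.57).

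Of 9 NuRD genes, 1 passed with 12 arrays, the ATPase CHD3, which fell by 0.57 with TQ+5-FU (adjusted p = 0.039). Its difference was -0.60 (adjusted p = 0.083) under TQ and -0.29 (adjusted p = 0.24) under 5-FU. The other CHD3 probe set gave -0.46 with TQ+5-FU, which did not pass. With 10 arrays 4, 5 and 4 NuRD genes were lower with TQ, 5-FU and TQ+5-FU and 0 higher, beside 30.6%, 26.1% and 21.4% of all probe sets called in either direction. CHD3, the related ATPase CHD4 and the subunit GATAD2A were then lower under all 3 treatments, with adjusted p of 0.00074 to 0.0082 for CHD3, 0.00057 to 0.028 for CHD4 and 0.00051 to 0.029 for GATAD2A. None of 8 SIN3 genes passed by limma with 12 arrays. With 10 arrays 1 was higher and 1 lower with TQ, 3 were higher with 5-FU and 1 was higher with TQ+5-FU, beside the same shares of all probe sets.

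Of 15 genes of the MEF2 and class IIa axis, 2 passed with 12 arrays, both higher with 5-FU, beside 6.68% of all probe sets in that comparison. NR4A1, an orphan nuclear receptor and MEF2 target, rose by 1.16 (SE 0.23, adjusted p = 0.013), and by 0.87 with 10 arrays (adjusted p = 7.9e-05). Its 2 other probe sets gave 0.22 and 0.76 with 12 arrays, and 1 of them passed. PRKD2, a kinase that sends class IIa enzymes out of the nucleus, rose by 1.02 (SE 0.21, adjusted p = 0.016), from 9.69, 9.75 and 9.77 in control to 10.47, 10.55 and 11.26, and by 0.77 with 10 arrays (adjusted p = 0.00037). With 10 arrays 1 gene was higher and 5 lower with TQ, 3 higher and 1 lower with 5-FU, and 2 higher and 2 lower with TQ+5-FU. The shares of all probe sets were 30.6%, 26.1% and 21.4%. NR4A1 rose with TQ+5-FU by 0.51 (adjusted p = 0.0035), and PRKD2 fell with TQ by 0.30 (adjusted p = 0.037). KLF2 gave -1.12 with TQ (adjusted p = 4.8e-05) and -0.62 with TQ+5-FU (adjusted p = 0.0011). MEF2D gave -0.57 with TQ (adjusted p = 0.0023), and JUN -0.43 with 5-FU (adjusted p = 0.0013). MEF2A itself did not pass with 12 arrays under TQ (0.21, adjusted p = 0.88), 5-FU (-0.01, adjusted p = 0.98) or both (0.23, adjusted p = 1). With 10 arrays MEF2A rose with 5-FU by 0.57 (adjusted p = 0.0016) and with TQ+5-FU by 0.44 (adjusted p = 0.011).

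None of 11 lysine acetyltransferases, the enzymes that oppose deacetylases, passed against control by limma with 12 arrays. With 10 arrays 2 were higher and 5 lower with TQ, 2 higher and 4 lower with 5-FU, and 1 higher and 4 lower with TQ+5-FU, where 30.6%, 26.1% and 21.4% of all probe sets passed. EP300 did not pass in either fit (0.26, -0.47 and 0.11 with 12 arrays, adjusted p = 0.78, 0.37 and 1).

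Of 8 genes of NAD supply, NADSYN1, which makes NAD in its last step from nicotinate, rose by 0.97 with 5-FU (adjusted p = 0.014; 0.75 and adjusted p = 0.00073 with 10 arrays). NAMPT, the rate-limiting enzyme of NAD salvage, gave 0.76 with TQ (SE 0.66, adjusted p = 0.76 with 12 arrays, 0.0046 with 10). Of 8 bromodomain proteins, which bind acetylated lysines, SMARCA4 fell by 0.75 with 5-FU (adjusted p = 0.0052) and by 0.72 with TQ+5-FU (adjusted p = 0.014), although 1 of its 7 other probe sets had the opposite sign under 5-FU. Of those 7, 5 passed with the same sign under 5-FU and 3 under TQ+5-FU. With 10 arrays the differences of the brightest SMARCA4 probe set were -0.89 and -0.76, and it also fell with TQ by 0.37 (adjusted p = 0.0033). BRD2 did not pass with 12 arrays (0.07, 0.11 and 0.40, adjusted p = 0.87, 0.64 and 0.14), and rose with TQ+5-FU by 0.35 with 10 (adjusted p = 0.023).

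The last list held 4 measured genes known to rise when deacetylases are inhibited, though each also answers to other signals, such as p53 for CDKN1A. With 5-FU, 3 of them rose: GSN, an actin-severing protein, by 1.58 (adjusted p = 0.00092), CLU, a secreted chaperone, by 0.90 (adjusted p = 0.0076), and CDKN1A, the cell cycle inhibitor p21, by 0.68 (adjusted p = 0.025). The same 3 rose with TQ+5-FU, by 0.94, 1.80 and 0.68 (adjusted p = 0.030, 0.00036 and 0.047). Of all probe sets, 6.68% passed with 5-FU, 2.58% with TQ+5-FU and 0.252% with TQ over the 12 arrays. The other GSN probe set passed with 5-FU (1.25) but not with TQ+5-FU (0.43). Of the 2 other CLU probe sets, 2 passed with 5-FU, 2 with TQ+5-FU and 1 with TQ, all with the same sign. With TQ only CLU rose, by 1.42 (adjusted p = 0.0080), from 9.71, 9.74 and 9.79 in control to 11.26, 11.20 and 11.05, and CDKN1A gave -0.08 (adjusted p = 0.88). These calls held with 10 arrays, GSN rising by 1.36 and 0.83 with 5-FU and TQ+5-FU, CDKN1A by 0.51 and 0.63, and CLU by 1.42, 0.70 and 1.74 with TQ, 5-FU and TQ+5-FU. TXNIP passed in no comparison with 12 arrays (-0.16, 0.10 and 0.84) and rose with 5-FU and TQ+5-FU with 10 (0.57 and 1.01).

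**Figure D4:**
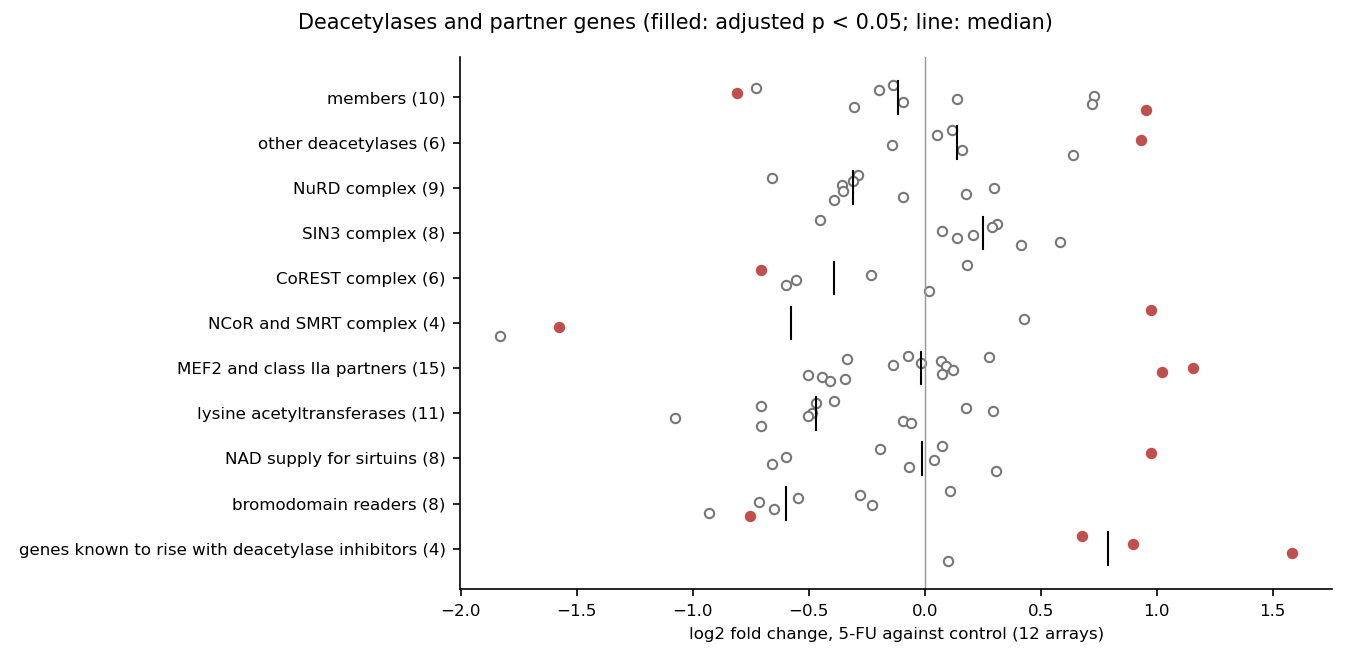
Log2 fold change of 5-FU against control over 12 arrays (horizontal axis) for the deacetylase members and 10 lists of genes that act with them, with the number of measured genes in brackets. Each circle is a gene, red where the adjusted p was below 0.05, and the vertical line is the list's median, which runs from -0.60 for bromodomain readers to 0.79 for genes known to rise with deacetylase inhibitors. TBL1X at -1.58 and GSN at 1.58 are the outermost genes that passed.

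The genes whose pattern over the 12 arrays was most like that of HDAC4, of 11962 ranked, were MCM7 (Pearson r 0.95, 0.97 over 10 arrays), SMARCA4 (0.95 and 0.97) and ABCF2 (0.95 and 0.96). Those most like SIRT2 were PRKACA (0.996 and 0.991), HLA-J (0.994 and 0.986), a pseudogene whose probes may also read other HLA genes, and MXD3 (0.993 and 0.982). These values describe arrays that share a normalisation and 4 treatments, and the 2 displaced arrays enter the first value of each pair.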

How the data were processed

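RNA of 12 arrays (4 groups of 3) was read on the Human Genome U133A 2.0 array. The deposited values are log2 signals that the authors normalised by RMA (GeneSpring in the methods, Expression Console in the labels), so the scale was set jointly over all arrays. The platform annotation named 1 gene for 19064 of the 22215 probe sets tested, several for 1043 and none for 2108, and 62 control probe sets of the 22277 in the table were left out. Differences were fitted with limma 3.58.1 (R 4.3.3), 1 mean per group over all 12 arrays, eBayes, and Benjamini-Hochberg adjustment over the 22215 probe sets at 0.05. A gene with several probe sets was read from the one with the highest mean. The number of arrays limits the precision, and 3 against 3 arrays cannot give an exact two-sided permutation p below 0.1. The members and gene lists were chosen with earlier results of these data known. Named were all members, the first gene of each list, up to 3 passing genes per list and comparison with the largest change, and the 3 genes most like each member past the F test. HDAC11, SIRT3, SIRT5, SIRT6, SIRT7, TXNIP, CHD4, GATAD2A, KLF2, MEF2D and JUN were named after their values were seen. Alternatives were the replicate number as a block, leaving out each array or the 2 displaced arrays, array weights, median centring, quantile normalisation, a filter on the 30% dimmest probe sets, fitting only the groups compared, a trended robust prior, the methods' ANOVA with Tukey's test and t-test, and other probe set rules. The scripts were tested on simulated data.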

Additional observations from a re-analysis of the deposited data

How the results depend on the processing

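Each count is of the 10 members that passed, unless probe sets are named. With all 12 arrays it was 0 for TQ against control, 2 for 5-FU against control, 1 for TQ+5-FU against control, 0 for TQ+5-FU against 5-FU, 0 for TQ+5-FU against TQ, 2 for 5-FU against TQ, 0 for the interaction and 2 among the 4 groups. Without the 2 displaced arrays these became 6, 7, 3, 1, 2, 4, 2 and 8, and with array weights 7, 7, 8, 1, 5, 5, 5 and 9. Of the 22215 probe sets, 56, 1483, 573, 164, 215, 2262, 28 and 1675 passed with 12 arrays in the same order. Without the displaced arrays 6799, 5802, 4762, 1362, 2606, 6351, 2196 and 9323 probe sets passed. With array weights 10705, 8099, 9556, 4512, 9809, 8874, 8059 and 15070 probe sets passed. Centring each array on its median left 0 members for 5-FU against control, 0 for TQ+5-FU against control and 0 among the 4 groups (1078, 373 and 1190 probe sets). Fitting only the groups compared gave 6 for TQ against control and 0 for 5-FU against control, TQ+5-FU against control and 5-FU against TQ. In the same order 6552, 162, 863 and 196 probe sets passed. The methods' ANOVA with Tukey's test gave 1 for 5-FU against control, 0 for 5-FU against TQ and 1 among the 4 groups (1390, 1319 and 1669 probe sets). The methods' t-test gave 6 for TQ against control at its unadjusted threshold (7848 probe sets). After Benjamini-Hochberg adjustment it gave 2 for TQ, 0 for 5-FU and 0 for TQ+5-FU against control (3591, 265 and 546 probe sets). The trended robust prior gave 0 for TQ+5-FU against control (398 probe sets). Leaving out 1 array at a time gave 0 to 4 for 5-FU against control, 0 to 1 for TQ+5-FU against control, 0 to 2 for TQ+5-FU against TQ, 0 to 2 for 5-FU against TQ and 0 to 3 among the 4 groups. The highest of these for 5-FU against control and TQ+5-FU against TQ came without 5-FU replicate 3. In the same order 661 to 3205, 183 to 2333, 32 to 2682, 728 to 4213 and 813 to 4699 probe sets passed. Counts under quantile normalisation, the filter on dim probe sets and other probe set rules stayed within 1.5 times those of the 12 arrays. The cause of these changes was not tested.

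Deviations from the group means were correlated above 0.1 in 6 of 18 same-numbered pairs (range -0.836 to 0.859). Such deviations balance out within a group, so a displaced array pushes those of its replicates the other way. The displaced arrays carry different replicate numbers, so these values cannot decide whether the numbers pair the samples. With the replicate number as a block 1 member passed for 5-FU against control, 0 for TQ+5-FU against control and 0 among the 4 groups, and no other member count moved. In the same order 1063, 325 and 987 probe sets passed. The calls lost were SIRT2 for 5-FU (adjusted p = 0.057) and HDAC4 for TQ+5-FU (adjusted p = 0.070) against control.

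Of 1200 single-member values under alternatives, 1063 kept their direction and side of the threshold, 63 came to pass, 36 no longer passed and 38 turned in sign. Without the displaced arrays and with array weights, respectively, the turned values were 0.33 and 0.30 for HDAC1, -0.032 and -0.13 for HDAC6 and 0.35 and 0.24 for SIRT1 (5-FU against control), -0.087 and -0.069 for HDAC6 (TQ+5-FU against control), and for HDAC9 -0.21 and -0.32 (TQ+5-FU against 5-FU), 0.46 and 0.24 (TQ+5-FU against TQ) and 0.67 and 0.56 (5-FU against TQ). Centring turned HDAC4 to -0.00081 (TQ+5-FU against 5-FU) and HDAC5 to -0.0072 (interaction), and the probe set with the largest variance turned HDAC6 to -0.075 (TQ+5-FU against control). Leaving out 1 array turned 5-FU against control for HDAC1 (-0.37 to 0.33), HDAC6 (-0.032 to 0.32), HDAC7 (-0.30 to 0.038) and SIRT1 (-0.70 to 0.35). It turned TQ+5-FU against control for HDAC6 (-0.087 to 0.11) and SIRT1 (-0.029 to 0.47), TQ+5-FU against 5-FU for HDAC4 (-0.10 to 0.16), HDAC9 (-0.74 to 0.88) and SIRT1 (-0.17 to 0.88), HDAC9 for TQ+5-FU against TQ (-0.42 to 0.46) and 5-FU against TQ (-0.94 to 0.67), and the interaction for HDAC5 (-0.15 to 0.29) and SIRT1 (-0.93 to 0.11).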
